A study of Homo sapiens with 16 samples.

Results

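Promoters of long noncoding RNA (lncRNA) genes made up 3434 of the 164980 ATAC-seq peaks counted in 2 head and neck squamous carcinoma cell lines. They were chosen as every peak that the deposited annotation places at a promoter and assigns to a transcript of the lncRNA class. They stood beside 15129 peaks at promoters of protein-coding genes, within 20533 promoter peaks in all. ATAC-seq marks open chromatin through a transposase that cuts accessible DNA, and the count in a peak is the reading of accessibility. Cal33 and SAS are established HPV-negative lines. In each line, cells received a non-targeting siRNA (siControl) or a pool of siRNAs against ITGA7 (siITGA7), the alpha chain of an integrin that binds laminin. Both treatments were followed by culture in laminin-rich matrix from 24 h, and nuclei were taken at 48 h after transfection. Each treatment had 4 biological replicates per line, so that 4 groups of 4 gave 16 libraries. The comparison asks where lncRNA promoters became more or less accessible after the knockdown within each line. siRNA acts on the transcript, so accessibility at ITGA7 is no check of the knockdown, which was not measured in these files.

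LncRNAs are transcripts that are not translated into a protein, and many act in the nucleus on neighbouring genes or on chromatin. Divergent and antisense lncRNAs often start from the same nucleosome-free region as a coding gene on the other strand, so that a shared open region serves both. Intergenic lncRNA promoters are commonly used in fewer cell types than coding promoters. Host genes form another kind, whose transcripts are cut to release microRNAs or small nucleolar RNAs.

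The peaks belonged to 3132 gene identifiers, of which 2907 had 1 such peak, 177 had 2 and 48 had 3 or more. Matching by position to RefSeq gave a name to 1594 of these identifiers and to 1739 of the peaks. The others keep their Ensembl identifier here. For 2649 peaks the nearest start in the annotation was their own, at a median distance of 327 bp. For 785 it belonged to another identifier, as at the DIO3OS and LINC02874 peaks named below. Some named peaks lay far from their own start: LINC01322 by 252839 bp, PARP11-AS1 by 6150 bp and LINC01206 by 3982 bp. Peak widths ran from 159 to 4673 bp with a median of 804.5 bp, against 1115 bp at coding promoters. In 462 of the 3434 peaks a RefSeq start of a protein-coding gene lay inside the peak, and in 2770 none did. The other 202 lie on a chromosome whose coding starts were not used here. Where the strand of both genes was known, 293 of the shared peaks had the lncRNA and the coding gene on opposite strands and 8 on the same strand. A change in such a peak belongs to both starts and cannot be split between them.

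Promoter sequence is shown for 8 of the peaks that carry the results below, from RefSeq (GRCh38.p14), 250 bases before to 50 after the start, 5′ to 3′ on the gene's strand. Capitals mark matches on either strand to any of 10 short motifs. The first set has no coding start in the peak. MIR205HG is shown as a microRNA host that fell in Cal33, HMGA2-AS2 as a peak that rose in Cal33, LINC02098 as a peak that rose in both lines and LINC02459 as one that fell in both.
MIR205HG (chr1:209428570-209428869, plus strand): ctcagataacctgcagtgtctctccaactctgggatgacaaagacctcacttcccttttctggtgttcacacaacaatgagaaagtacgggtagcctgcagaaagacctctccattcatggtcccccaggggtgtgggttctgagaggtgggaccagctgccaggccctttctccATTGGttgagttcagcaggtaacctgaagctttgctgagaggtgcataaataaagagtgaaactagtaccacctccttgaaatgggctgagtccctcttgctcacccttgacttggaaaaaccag
HMGA2-AS2 (chr12:65948658-65948957, minus strand): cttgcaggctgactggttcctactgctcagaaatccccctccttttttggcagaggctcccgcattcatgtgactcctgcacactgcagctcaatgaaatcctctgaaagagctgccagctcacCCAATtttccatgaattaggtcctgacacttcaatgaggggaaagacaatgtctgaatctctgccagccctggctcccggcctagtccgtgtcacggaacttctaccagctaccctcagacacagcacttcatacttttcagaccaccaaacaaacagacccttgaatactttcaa
LINC02098 (chr11:128208516-128208815, plus strand): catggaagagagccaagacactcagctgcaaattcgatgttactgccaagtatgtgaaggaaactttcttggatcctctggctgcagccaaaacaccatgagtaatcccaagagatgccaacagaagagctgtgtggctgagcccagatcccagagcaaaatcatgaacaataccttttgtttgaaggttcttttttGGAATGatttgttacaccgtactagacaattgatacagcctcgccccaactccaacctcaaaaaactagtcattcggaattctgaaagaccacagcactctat
LINC02459 (chr12:114241721-114242020, minus strand): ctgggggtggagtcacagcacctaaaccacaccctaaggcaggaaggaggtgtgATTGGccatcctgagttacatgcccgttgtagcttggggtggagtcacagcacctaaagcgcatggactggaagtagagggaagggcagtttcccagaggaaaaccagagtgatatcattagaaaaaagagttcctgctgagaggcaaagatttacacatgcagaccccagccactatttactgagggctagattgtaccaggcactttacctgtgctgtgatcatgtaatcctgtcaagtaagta

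The second set is rich in CG. MIR17HG is a microRNA host that fell in SAS, and the other 3 share their peak with a coding start: SLC2A1-DT fell in Cal33, PCCA-DT in SAS and FGD5-AS1 in both lines.
MIR17HG (chr13:91347437-91347736, plus strand): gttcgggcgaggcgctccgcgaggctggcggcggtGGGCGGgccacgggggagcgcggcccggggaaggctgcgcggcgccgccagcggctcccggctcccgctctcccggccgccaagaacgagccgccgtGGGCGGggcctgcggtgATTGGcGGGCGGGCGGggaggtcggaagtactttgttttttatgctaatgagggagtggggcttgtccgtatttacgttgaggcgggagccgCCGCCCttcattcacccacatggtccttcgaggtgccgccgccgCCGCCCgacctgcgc
SLC2A1-DT (chr1:42958799-42959098, plus strand): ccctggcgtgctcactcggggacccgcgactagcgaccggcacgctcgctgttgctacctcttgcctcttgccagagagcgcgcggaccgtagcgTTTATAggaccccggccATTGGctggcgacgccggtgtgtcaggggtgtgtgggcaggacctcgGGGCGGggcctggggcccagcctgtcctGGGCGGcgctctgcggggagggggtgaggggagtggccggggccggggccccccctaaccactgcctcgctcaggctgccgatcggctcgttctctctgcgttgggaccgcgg
FGD5-AS1 (chr3:14948392-14948691, minus strand): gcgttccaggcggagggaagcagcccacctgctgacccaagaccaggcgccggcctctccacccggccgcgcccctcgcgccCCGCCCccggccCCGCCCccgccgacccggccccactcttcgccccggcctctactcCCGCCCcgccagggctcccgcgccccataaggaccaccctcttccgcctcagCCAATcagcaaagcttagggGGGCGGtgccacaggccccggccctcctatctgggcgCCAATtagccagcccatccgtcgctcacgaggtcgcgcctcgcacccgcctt
PCCA-DT (chr13:100088894-100089193, minus strand): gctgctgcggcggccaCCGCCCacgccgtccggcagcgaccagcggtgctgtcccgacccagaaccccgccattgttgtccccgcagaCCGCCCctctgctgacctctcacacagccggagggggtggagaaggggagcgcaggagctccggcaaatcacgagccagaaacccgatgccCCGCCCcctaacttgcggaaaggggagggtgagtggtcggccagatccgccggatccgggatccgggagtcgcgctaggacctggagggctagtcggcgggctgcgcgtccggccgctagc

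The first 4 windows held 1 (MIR205HG), 4 (HMGA2-AS2), 4 (LINC02098) and 2 (LINC02459) CG dinucleotides in 300 bases, and the other 4 held 42 (MIR17HG), 31 (SLC2A1-DT), 32 (FGD5-AS1) and 32 (PCCA-DT). The motifs were searched on both strands, and none contains another. They were the TATA box as TATAAA, the CCAAT box by those letters, the GC box as GGGCGG, that of ETS factors as CCGGAAG, that of AP-1 as TGANTCA, that of TEAD as GGAATG, the E-box as CACGTG, that of CREB as TGACGTCA, that of YY1 as AAGATGGC, and the NRF1 motif by name. A GC box occurred 6 times in the MIR17HG window, 4 in FGD5-AS1, 3 in PCCA-DT and 2 in SLC2A1-DT, and in none of the first 4. Among the 8 windows the TEAD letters were found only in that of LINC02098, and those of AP-1 in none. A match is a description of letters, not a bound site.

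Both kinds of sequence were common among the peaks. A RefSeq window of the matched gene started inside 848 of the 3434 peaks, with a median GC content of 60.7% and a median ratio of observed to expected CG of 0.615. In the 264 of these with a coding start in the peak, the medians were 67.8% and 0.861, and a GC box was present in 74.6%. In the 584 without one, the medians were 56.3% and 0.4, and a GC box was present in 36.3%. The AP-1 letters ran the other way, in 3.41% of windows with a coding start and 20.4% without, against 7.71% of all 35116 RefSeq windows. Over the 848 windows the shares were 29.2% for CCAAT (all windows 34.6%), 48.2% for the GC box (45.0%), 6.84% for the TATA box (11.5%), 11.0% for ETS (10.3%) and 16.7% for TEAD (14.0%). The E-box was in 8.96% (7.26%), CREB in 2.95% (1.85%), NRF1 in 1.3% (1.24%) and YY1 in 2.48% (2.89%). These shares carry no test.

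siITGA7 libraries were the deeper ones in Cal33 and the shallower ones in SAS. Total counts in peaks ran from 3980563 to 8367079 in Cal33 siControl and from 8646532 to 13285086 in Cal33 siITGA7, but from 1766033 to 4870187 in SAS siControl and from 758590 to 1867047 in SAS siITGA7. Of 8 squamous epithelial markers with a tabled start, 7 had a peak over it, and the TP63 start had none. In Cal33 siControl the 7 ran from 4.67 CPM (counts scaled to a common library size) at DSG3 to 205 at KRT5. In SAS siControl they ran from 5.63 CPM at DSG3 to 105 at LAMB3, with KRT5 at 64.2. The 1 fibroblast and 2 endothelial starts tabled had none, and 2 of 3 blood cell starts had one (CD14 at 15.7 and 25.7 CPM, LCK at 4.20 and 18.3 CPM, Cal33 and SAS siControl). In bulk libraries, fewer cells with an open site and less opening per cell cannot be told apart. CPM values use TMM factors, which centre the bulk of peaks, fitted within a line. They are therefore compared within a line only.

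In Cal33 the lncRNA promoter peaks held 4.61% ± 0.15 of the counts in siControl and 4.55% ± 0.05 in siITGA7 (SD, n = 4 each), a difference within the spread. In SAS they held 4.14% ± 0.04 and 3.81% ± 0.02, and the 4 siITGA7 libraries were all below the 4 siControl libraries. Promoters of every kind held 33.7% ± 0.42 of the SAS counts in siControl and 30.1% ± 0.36 in siITGA7. As a share of promoter counts alone, the lncRNA peaks went from 12.3% ± 0.05 to 12.6% ± 0.09 in SAS and from 10.4% ± 0.39 to 11.1% ± 0.08 in Cal33, the direction opposite to the share of all counts.

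In Cal33, 2190 of the 3434 peaks had enough counts to be tested, and 76 rose and 141 fell after siITGA7 (edgeR quasi-likelihood test, Benjamini-Hochberg adjusted p under 0.05 over all peaks). Those are 3.47% and 6.44% of the lncRNA peaks tested, beside 4.52% and 4.67% (9.19% either way) of all 75230 peaks tested and 1.25% and 11.0% of the coding promoters tested. In SAS, 1654 peaks could be tested, and 40 rose and 85 fell. Those are 2.42% and 5.14%, beside 4.04% and 2.99% (7.03% either way) of all 43600 peaks and 1.08% and 7.80% of coding promoters. The median log2 change over the tested lncRNA peaks was -0.06 in Cal33 (coding promoters -0.14, all peaks -0.01) and -0.10 in SAS (-0.15 and 0.01). Most called changes were moderate. The median log2 change was 0.61 for peaks that rose and -0.50 for those that fell in Cal33, and 0.81 and -0.58 in SAS. A change of 2-fold or more was reached by 11 rises and 9 falls in Cal33 and by 14 rises and 2 falls in SAS. The balance of rises and falls depended on the scaling. With TMM factors from promoter peaks alone, the median of all peaks moved up by 0.11 in Cal33 and 0.14 in SAS, and the lncRNA counts became 151 higher and 61 lower in Cal33 and 76 and 23 in SAS. With total counts as library size they were 132 and 103 in Cal33 and 40 and 86 in SAS. No direction is therefore drawn for lncRNA promoters as a class. Of the calls, 68 rises and 59 falls in Cal33 and 40 rises and 23 falls in SAS were kept under each of 3 other scalings. None of the 3 lowered the SAS median of all peaks (0.007 here, 0.008 with RLE size factors, 0.009 with total counts). Keeping all 40 SAS rises is therefore no test of them. In Cal33 only RLE size factors lowered that median, from -0.007 to -0.019. Leaving out 1 library moved the Cal33 counts most. There were 45 rises and 60 falls without siControl replicate 1, 75 falls without siControl replicate 2 and 315 falls without siControl replicate 3. Without siITGA7 replicate 1 there were 80 falls, without replicate 2 there were 42 rises and 58 falls, without replicate 3 there were 42 rises and 56 falls, and without replicate 4 there were 92 falls. In SAS, 54 falls were called without siITGA7 replicate 2 and 43 without siITGA7 replicate 4. The other counts with 1 library left out were within 1.5 times of those with all libraries. Cal33 siControl replicates 1 and 2 and siITGA7 replicate 4 were sequenced in 2 runs, and the other Cal33 libraries in 1. Runs were thus not balanced between the treatments in Cal33. With the libraries of 1 run alone, 44 peaks rose and 38 fell in Cal33, and the median log2 change was -0.008. The part of sequencing runs in the Cal33 calls was not tested.

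**Figure D1:**
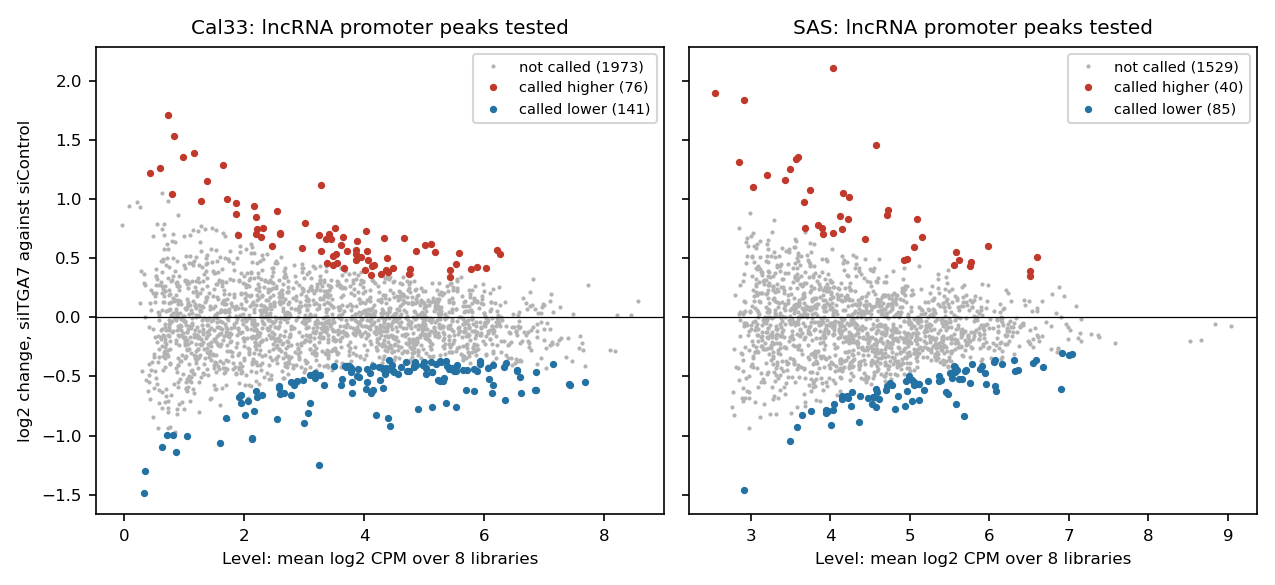
Log2 change after siITGA7 (vertical axis) against mean log2 CPM over the 8 libraries of a line (horizontal axis, a different range in each panel) for every lncRNA promoter peak tested, 2190 in Cal33 and 1654 in SAS. Red and blue points are the 76 and 40 peaks that rose and the 141 and 85 that fell. Most of the largest changes lie at low level.

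Few of the peaks with a coding start rose. Among the 442 Cal33 peaks tested that hold one, 1 rose and 31 fell, against 70 and 102 of the 1622 that hold none. In SAS, 3 rose and 37 fell of 435 with a coding start, against 35 and 42 of 1118 without. Peaks with a coding start were wider (median 1601.5 against 691.5 bp) and higher, with a median of 16.0 against 3.08 CPM per kb in Cal33 siControl and 17.4 against 7.53 in SAS siControl. Among peaks above the median level, 1 of 374 shared peaks rose in Cal33 against 46 of 668 unshared ones, and 1 of 309 against 15 of 465 in SAS. Under promoter TMM factors the shares that rose were 3.85% with and 7.64% without a coding start in Cal33, and 1.84% and 5.72% in SAS. With total counts they were 2.94% and 6.84% in Cal33 and 0.690% and 3.13% in SAS. The difference between the kinds of peak was not tested, since peaks are not replicates.

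**Figure D2:**
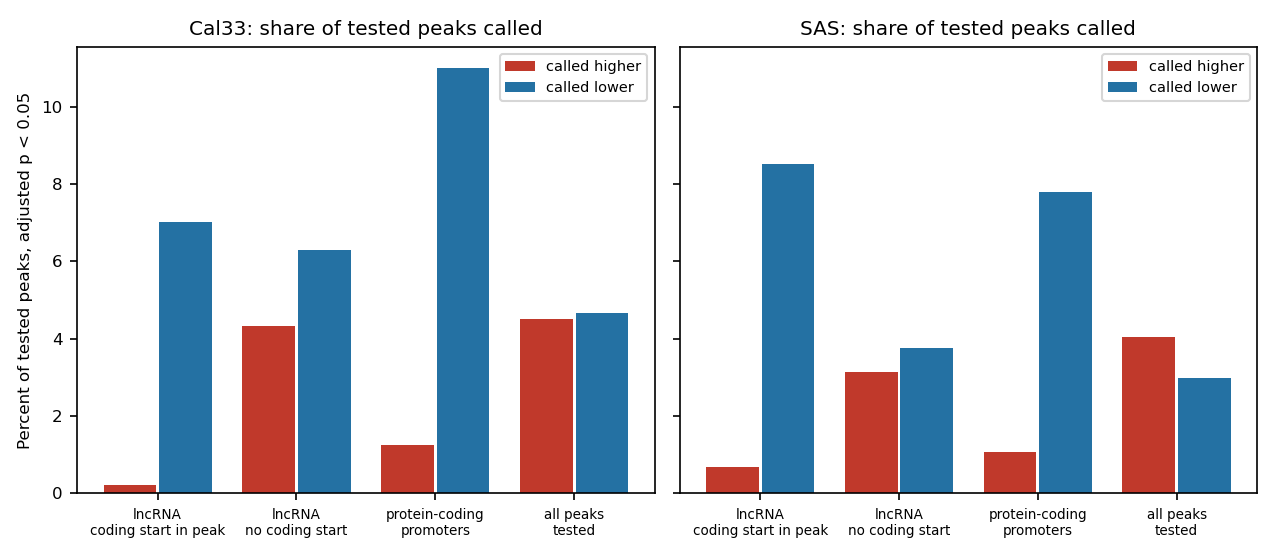
Percent of tested peaks called higher (red) or lower (blue) after siITGA7, by class of peak, at adjusted p under 0.05. The vertical axis starts at 0 and is shared by both lines. LncRNA promoters with a coding start in the peak rose in 0.226% (Cal33) and 0.690% (SAS) of tests, those without in 4.32% and 3.13%.

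Counts by kind of name were smaller. Divergent transcripts (names ending in -DT) had 2 rises and 11 falls among 134 tested peaks in Cal33 and 0 rises and 10 falls among 123 in SAS. Intergenic transcripts (LINC names) had 15 rises and 25 falls among 284 in Cal33 and 6 and 10 among 211 in SAS. Antisense transcripts (names ending in -AS) had 9 and 22 among 332 in Cal33 and 10 and 14 among 285 in SAS. In that order of kinds, falls were 8.21%, 8.8% and 6.63% in Cal33 and 8.13%, 4.74% and 4.91% in SAS. Rises were 1.49%, 5.28% and 2.71% in Cal33 and 0%, 2.84% and 3.51% in SAS. Of all lncRNA peaks tested, 6.44% fell and 3.47% rose in Cal33, and 5.14% and 2.42% in SAS. Where a RefSeq window was at hand, the sequence differed with direction. The 23 windows of peaks that rose in Cal33 had a median GC content of 50.0% and the AP-1 letters in 30.4%, and the 48 that fell had 65.2% and 10.4%. In SAS the 9 that rose had a median of 46.0% and the 42 that fell 67.0%, with the AP-1 letters in 11.1% and 9.52%. A GC box was in 21.7% of the windows that rose and 62.5% of those that fell in Cal33, and in 33.3% and 78.6% in SAS. A coding start lay in the peak for 1 of 76 rises and 31 of 141 falls in Cal33, and for 3 of 40 and 37 of 85 in SAS. Among all windows at hand, those without a coding start had a median GC content of 56.3% and the AP-1 letters in 20.4%. Those with one had 67.8% and 3.41%. Direction and coding start were not separated here. The sets of windows by direction are small and were not tested.

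KCNQ1OT1 is an imprinted antisense transcript that starts within KCNQ1 and silences neighbouring genes in cis. Its peak (chr11:2699169-2700701) read 50.8, 57.1, 37.8 and 38.3 CPM in the siControl libraries and 24.3, 28.9, 25.7 and 29.0 in the siITGA7 libraries of Cal33. All siITGA7 values were below all siControl values, with a log2 change of -0.75 (SE 0.13, adjusted p = 0.000324). In SAS, siControl read 24.9, 14.7, 20.1 and 24.3 CPM and siITGA7 10.5, 20.6, 25.6 and 20.5, groups that overlap (log2 change -0.10, SE 0.20, adjusted p = 0.828). The difference between the lines was 0.55 (SE 0.25, adjusted p = 0.308) and did not pass.

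MIR205HG is the host gene of miR-205, a microRNA of basal and squamous epithelium, whose mature 5p strand is shown with its seed, bases 2 to 8, in capitals.
hsa-miR-205-5p: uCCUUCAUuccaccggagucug
The MIR205HG peak (chr1:209427782-209429361) read 50.1, 50.2, 42.0 and 42.4 CPM in Cal33 siControl and 27.8, 31.5, 34.4 and 33.3 in Cal33 siITGA7. No siITGA7 library reached a siControl library, and the log2 change was -0.54 (SE 0.12, adjusted p = 0.00352). In SAS the groups overlapped, with 21.3, 26.4, 28.5 and 33.6 CPM in siControl and 31.5, 45.9, 33.3 and 22.6 in siITGA7 (log2 change 0.24, SE 0.17, adjusted p = 0.439). The line difference of 0.68 (SE 0.22, adjusted p = 0.108) did not pass. KCNQ1OT1 and MIR205HG were called in Cal33 under all 17 alternatives, with log2 changes from -0.84 to -0.53 and from -0.59 to -0.41.

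SLC2A1-DT is divergent from SLC2A1, which encodes the glucose transporter GLUT1, and both starts lie in the peak (chr1:42957400-42959480). In Cal33 it read 92.5, 96.9, 64.7 and 92.1 CPM in siControl and 54.8, 55.3, 59.5 and 61.6 in siITGA7. The groups did not overlap, although siControl replicate 3 was close to the siITGA7 range (log2 change -0.58, SE 0.13, adjusted p = 0.00415). In SAS the values were 87.2, 79.3, 81.6 and 78.3 against 89.2, 77.8, 106 and 90.5 CPM, with no call (adjusted p = 0.472). With only the 5 Cal33 libraries that were sequenced in 1 run, the Cal33 fall was not called.

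HAGLR, an antisense transcript of the HOXD cluster, went from 16.2, 19.8, 13.9 and 10.1 CPM to 9.34, 11.7, 8.80 and 11.3 in Cal33 (chr2:176177809-176179181). The groups overlapped, and the log2 change of -0.52 (SE 0.15, adjusted p = 0.0287) was called in 8 of 17 alternatives. PXN-AS1, antisense to the gene of the focal adhesion protein paxillin, has the start of the ribosomal gene RPLP0 in its peak. It fell by 0.38 on the log2 scale (SE 0.12, adjusted p = 0.0473), and was called in 4 of 17 alternatives. LAMA5-AS1, antisense to the laminin chain gene LAMA5, was the 1 rise in Cal33 among the listed genes that could be matched by name. It read 3.37, 5.16, 2.55 and 4.06 CPM in siControl and 5.59, 6.40, 5.34 and 6.83 in siITGA7. These groups do not overlap (log2 change 0.75, SE 0.21, adjusted p = 0.0184), but they rest on 18 to 23 reads per siControl library.

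Among the other Cal33 falls, the largest at or above the median level was LOC124903062 (chr12:132593832-132594421), a gene with no known role. It went from 16.5, 15.2, 12.5 and 13.1 CPM to 5.66, 5.81, 6.81 and 5.57, and the groups lie far apart (log2 change -1.25, SE 0.15, adjusted p = 2.3e-06). ENSG00000242086 on chromosome 3 followed, at -0.92 (SE 0.12, adjusted p = 1.3e-05), and ENSG00000254578 on chromosome 8, at -0.85 (SE 0.14, adjusted p = 0.000173). LOC124908011 changed by -0.82 (SE 0.13), ZCCHC14-DT, which shares its peak with the ZCCHC14 start, by -0.77 (SE 0.13), and ENSG00000231563 by -0.72 (SE 0.12). In each of these 6 peaks every siITGA7 library was below every siControl library, which was a condition of their choice. Of all peaks tested in Cal33, 6.16% met that condition. Each of the 6 was called under all 17 alternatives.

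Among the Cal33 rises, ENSG00000277999 (chr16:29271675-29272463) read 7.39, 5.74, 4.99 and 7.59 CPM in siControl and 12.3, 14.3, 14.4 and 14.9 in siITGA7. Its log2 change of 1.12 (SE 0.15, adjusted p = 2.34e-05) was the largest rise among peaks of at least median level. HMGA2-AS2 is antisense to HMGA2, the gene of an architectural chromatin protein, and its peak (chr12:65947897-65949105) holds no coding start. It went from 7.39, 7.74, 9.28 and 9.71 CPM to 14.6, 15.4, 14.4 and 14.2 (log2 change 0.76, SE 0.14, adjusted p = 0.00063). In SAS, siControl read 20.9, 26.4, 28.3 and 31.8 CPM and siITGA7 29.7, 30.9, 31.1 and 32.5, and the change of 0.21 (SE 0.17, adjusted p = 0.499) was not called. LOC105370399 changed by 0.73 (SE 0.12), LOC105379091 by 0.68 (SE 0.13), LINC02098, LINC01322 and LINC02874 by 0.67 each (SE 0.13, 0.14 and 0.12), and LINC03063 by 0.66 (SE 0.14). All 8 of these Cal33 rises had every siITGA7 library above every siControl library, which was a condition of their choice. Of all peaks tested, 8.39% met that condition. All 8 rises were called under all 17 alternatives.

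**Figure D3:**
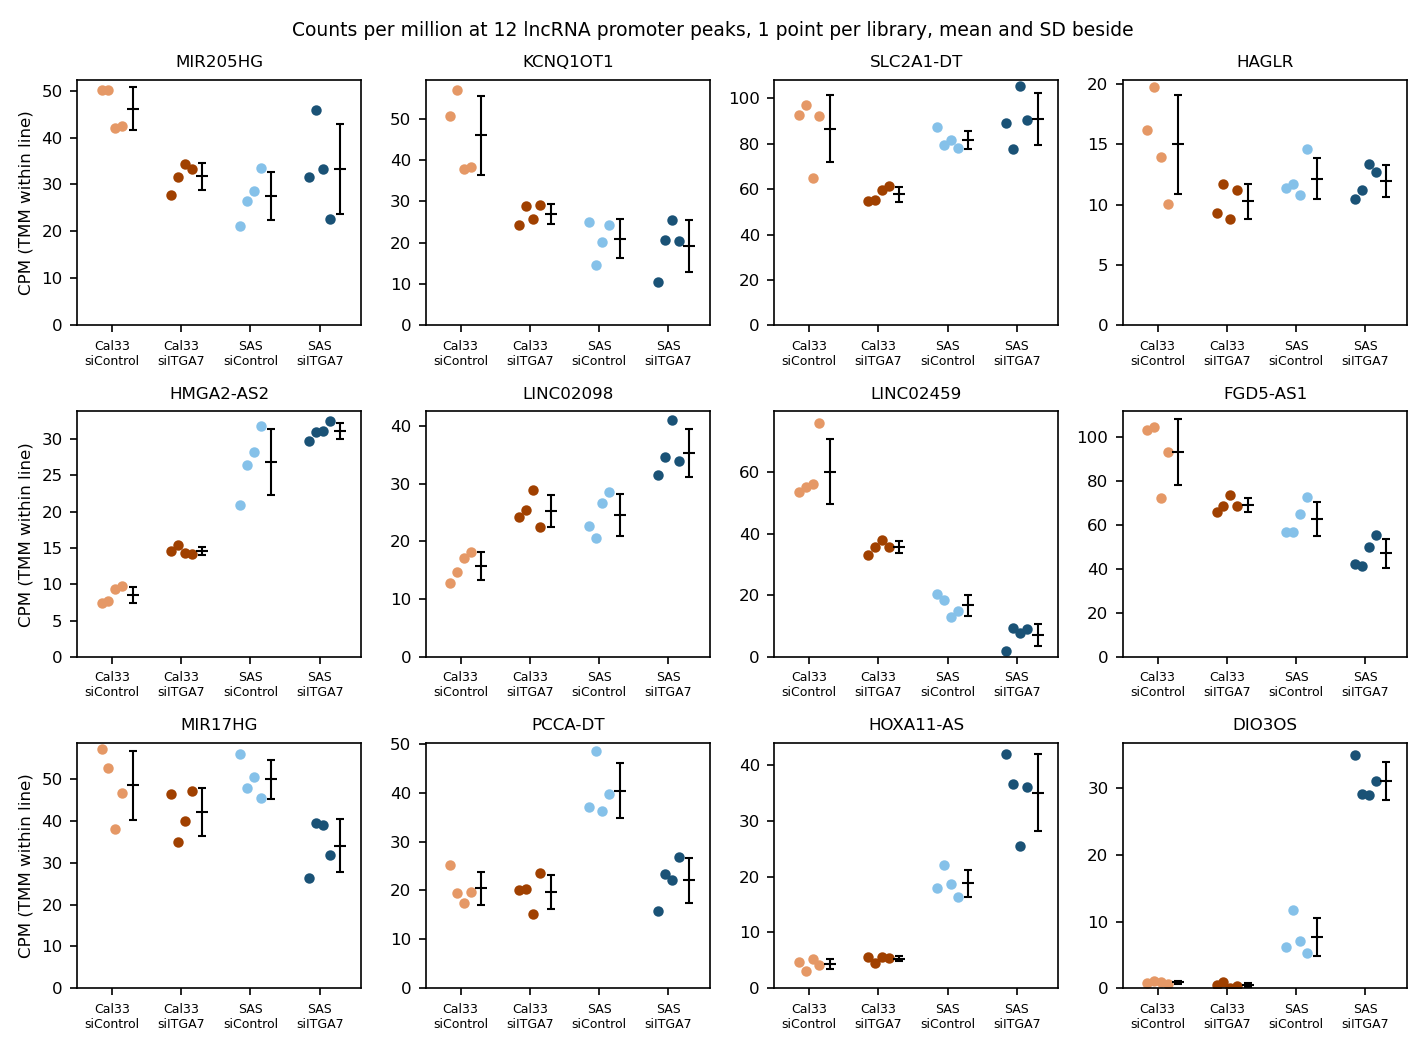
CPM in each of the 16 libraries (points) at 12 lncRNA promoter peaks, with the mean and SD of each group of 4 beside them. Each vertical axis starts at 0, and values are scaled within a line. KCNQ1OT1 and MIR205HG are lower in the 4 Cal33 siITGA7 libraries than in the 4 siControl libraries, and DIO3OS and HOXA11-AS are higher in SAS siITGA7 than in SAS siControl.

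The largest rise in SAS was at DIO3OS, a transcript from the strand opposite the imprinted gene DIO3, which encodes a thyroid hormone deiodinase. The peak is small (chr14:101555715-101555974). SAS siControl read 6.23, 11.8, 7.13 and 5.36 CPM and SAS siITGA7 35.0, 29.0, 28.9 and 31.1, so that the groups are far apart (log2 change 2.11, SE 0.22, adjusted p = 3.28e-14). Behind these values are 15 to 27 reads per siControl library and 20 to 44 per siITGA7 library. In Cal33 the peak was low, at 0.706 to 1.15 CPM in siControl and 0.105 to 0.948 in siITGA7, too low to be tested there. The fitted difference between the lines was 2.89 (SE 0.54, adjusted p = 0.00111), on 1 to 8 reads per Cal33 library.

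HOXA11-AS is antisense to the homeobox gene HOXA11, and the coding start lies in the same peak (chr7:27184137-27185250). SAS siControl read 18.0, 22.0, 18.8 and 16.4 CPM and siITGA7 42.0, 36.5, 25.6 and 36.1 (log2 change 0.91, SE 0.17, adjusted p = 8e-05). The groups did not overlap. In Cal33 the values stayed low, from 3.15 to 5.22 CPM in siControl and from 4.62 to 5.66 in siITGA7 (log2 change 0.25, SE 0.19, adjusted p = 0.432). HOXA11-AS was thus 1 of the 3 SAS rises with a coding start.

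ENSG00000275197 (chr12:25223938-25224779) went from 16.1, 12.5, 12.2 and 13.2 CPM to 40.2, 37.5, 42.2 and 32.5 in SAS (log2 change 1.46, SE 0.18, adjusted p = 1.58e-10), a rise called under all 16 alternatives. It lies in a stretch of chromosome 12, from 10 to 40 Mb, where 6 of 23 tested lncRNA peaks rose in SAS and 1 of 20 in Cal33. In SAS that is 26.1%, beside 2.42% of all lncRNA peaks and 4.04% of all peaks tested. The bounds of the stretch were set by hand and not by a rule, so the share is no test. Its lncRNA peaks were also high, with a median of 14.7 CPM in SAS siControl against 6.11 over all lncRNA peaks. Why these peaks rose was not tested. ENSG00000253796 rose by 0.87 (SE 0.17, adjusted p = 0.000156), ENSG00000188825 by 0.68 (SE 0.15, adjusted p = 0.0012), and PARP11-AS1, antisense to a gene of the PARP family, by 0.66 (SE 0.19, adjusted p = 0.0164). ENSG00000230285 rose by 0.59 (SE 0.16), SAP30BP-AS1 by 0.55 (SE 0.13) and TMEM105 by 0.51 (SE 0.10). Of all peaks tested in SAS, 5.99% had siITGA7 libraries all above siControl. Each of these 6 had them too, which was a condition of their choice. Only the ENSG00000253796 peak among them was called under all alternatives run. The PARP11-AS1 peak given here was called in 11 of 16. A different peak of PARP11-AS1 was among the 5 SAS rises called under all 16.

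Several of the SAS falls named here were in peaks shared with a coding start. LOC124907725 shares a peak (chr2:3518155-3519791) with ADI1, an enzyme gene of methionine salvage. It went from 59.4, 55.1, 73.2 and 76.8 CPM to 47.2, 30.0, 44.5 and 35.4, with no overlap (log2 change -0.84, SE 0.14, adjusted p = 3.18e-06). PCCA-DT is divergent from PCCA, which encodes a subunit of propionyl-CoA carboxylase. Its peak (chr13:100088692-100089901) read 37.0, 48.5, 36.2 and 39.7 CPM in siControl and 15.7, 23.4, 22.2 and 26.9 in siITGA7 (log2 change -0.75, SE 0.17, adjusted p = 0.0011). FAM151B-DT, in a peak with the FAM151B start, went from 63.8, 63.9, 58.7 and 61.5 CPM to 26.2, 37.5, 46.7 and 34.7 (log2 change -0.74, SE 0.14, adjusted p = 5.33e-05). The PCCA-DT and FAM151B-DT groups did not overlap either, all siITGA7 libraries being lower. That separation was a condition of naming these peaks, and 5.61% of all peaks tested in SAS met it. Both falls were called under all 16 alternatives. Further falls were at ENSG00000286084 (-0.78, SE 0.17), ENSG00000250699 in a peak with the CEP164 start (-0.73, SE 0.20), ENSG00000204929 (-0.71, SE 0.16), LACTB2-AS1 (-0.70, SE 0.16) and LNMICC (-0.67, SE 0.17).

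MIR17HG, the transcript that carries the miR-17-92 cluster, was the 1 microRNA host matched by name to fall in SAS. The 5p strands of miR-17 and miR-20a share the seed AAAGUGC, in capitals here.
hsa-miR-17-5p: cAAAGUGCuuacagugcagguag
hsa-miR-20a-5p: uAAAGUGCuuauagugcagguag
The MIR17HG peak (chr13:91347017-91349369) read 56.1, 47.7, 50.5 and 45.4 CPM in SAS siControl and 26.2, 39.4, 38.9 and 31.8 in siITGA7, with no overlap (log2 change -0.53, SE 0.15, adjusted p = 0.00994). It was not called under promoter TMM factors, with DESeq2, with libraries thinned to equal depth or in 1 of 8 fits that leave out a library. In Cal33 it read 57.0, 52.5, 37.9 and 46.6 against 46.5, 34.8, 39.9 and 47.0 CPM (log2 change -0.19, adjusted p = 0.368). LINC00881 fell by 0.37 on the log2 scale in SAS (SE 0.12, adjusted p = 0.0426), with overlapping groups and a call in 7 of 16 alternatives.

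Over 9 lists of known lncRNAs the calls were few. The lists were small nucleolar RNA hosts, microRNA hosts, nuclear and imprinted RNAs, the HOX clusters, squamous and carcinoma-associated RNAs, p53 and DNA damage, hypoxia with stress and inflammation, neighbours of adhesion and matrix genes, and markers of other cell types. Of 254 genes listed, 64 were matched by name to a lncRNA promoter peak, 85 peaks in all. A listed gene whose identifier was left without a name is missed, so the counts below cover matched names only. In Cal33 1 of 72 tested peaks rose (LAMA5-AS1) and 5 fell (KCNQ1OT1, MIR205HG, SLC2A1-DT, HAGLR and PXN-AS1), beside 3.47% and 6.44% of all lncRNA promoter peaks and 4.52% and 4.67% of all peaks tested. In SAS 1 of 58 rose (HOXA11-AS) and 2 fell (MIR17HG and LINC00881, the latter from the list of other cell types), beside 2.42% and 5.14% of all lncRNA promoter peaks and 4.04% and 2.99% of all peaks tested. The list counts are too small to be read against those shares. No peak of the small nucleolar RNA hosts (10 tested in each line), the p53 list (2 in each) or the hypoxia list (1 in Cal33) was called. The median log2 change of the 10 small nucleolar RNA host peaks was -0.12 in Cal33 and 0.03 in SAS, beside -0.06 and -0.10 over all lncRNA peaks tested.

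Several familiar lncRNAs lie outside the rule because the annotation gives their start to another class. The peak at MALAT1 is annotated as a transcription end, that at NORAD as an exon, those at GAS5 and MIR22HG as coding promoters, and those at SNHG1 and DANCR as small nucleolar RNA promoters. Of these, the DANCR peak fell in both lines, by 0.45 in Cal33 (adjusted p = 0.0121) and by 0.54 in SAS (adjusted p = 0.0303) on the log2 scale, and the other 5 were not called. Of 3734 RefSeq lncRNA genes with a start in any peak, 1039 started in a lncRNA promoter peak and 1428 in a coding promoter peak.

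Few peaks changed in both lines. Of 1547 tested in both, 7 fell in both and 2 rose in both, 2 rose in Cal33 and fell in SAS, and none did the reverse. The shared falls are 6.14% of the 114 Cal33 falls and 8.24% of the 85 SAS falls tested in both. Of all lncRNA peaks tested, 5.14% fell in SAS and 6.44% in Cal33. The shares in both are close to these, so the overlap is not read as a shared response of the class. Over all 38393 peaks tested in both lines, 192 fell in both, 113 rose in both, and 19 and 24 moved in opposite ways. The lines have separate control libraries.

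LINC02459 (chr12:114241740-114242468) had the largest shared fall. In Cal33 it went from 53.7, 55.1, 56.0 and 76.1 CPM to 33.2, 35.7, 37.9 and 35.6 (log2 change -0.76, SE 0.12, adjusted p = 0.000191). In SAS it went from 20.5, 18.4, 12.9 and 15 CPM to 1.75, 9.37, 7.78 and 9.19 (log2 change -1.04, SE 0.27, adjusted p = 0.00657). The groups were apart in both lines, though the SAS siITGA7 values stand on 1 to 13 reads. LINC02098 (chr11:128207761-128209100) rose in both, from 12.9, 14.6, 17.2 and 18.2 CPM to 24.2, 25.5, 28.9 and 22.5 in Cal33, and from 22.7, 20.6, 26.7 and 28.6 to 31.5, 34.7, 41.1 and 33.9 in SAS. Its SAS change of 0.49 (SE 0.16, adjusted p = 0.0494) was called in 4 of 16 alternatives.

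FGD5-AS1 shares its peak (chr3:14946874-14948868) with the start of the nuclear receptor gene NR2C2. Cal33 went from 103, 104, 72.1 and 93.2 CPM to 65.8, 68.7, 73.4 and 68.7, where siControl replicate 3 lay within the siITGA7 range (log2 change -0.42, SE 0.13, adjusted p = 0.0299). SAS went from 56.8, 56.6, 64.7 and 72.5 CPM to 42.0, 41.2, 50.0 and 55.2, without overlap (log2 change -0.40, SE 0.13, adjusted p = 0.0408). It was called in 8 of 17 alternatives in Cal33 and 7 of 16 in SAS. The steadiest shared fall was ENSG00000287475 (chr10:86399755-86401436), at -0.46 (SE 0.12) in Cal33 and -0.63 (SE 0.14) in SAS, called in 16 of 17 and 15 of 16 alternatives. LINC02361, LOC101928236, ENSG00000225506 and ENSG00000275198 also fell in both, by 0.43 to 0.65 in Cal33 and 0.53 to 0.66 in SAS on the log2 scale. In that order they were called in 6, 8, 10 and 13 of 17 alternatives in Cal33 and in 11, 10, 7 and 10 of 16 in SAS. Groups overlapped at ENSG00000225506 in Cal33 and at LOC101928236 in SAS. LOC105371773 rose in both, by 0.61 and 0.72, and was called in 7 of 17 alternatives in Cal33 and 7 of 15 in SAS.

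The change differed between the lines (interaction test over all 16 libraries) at 33 of 2553 lncRNA peaks, 7 higher and 26 lower in SAS relative to Cal33. Over all peaks in the same test, 0.27% were higher and 0.491% lower (0.761% either way). The split of the lncRNA peaks depended on the fit. It was 8 higher and 10 lower with DESeq2, and 10 and 11 with RLE size factors. With promoter TMM factors it was 13 and 20, and with total counts 12 and 50. No direction of the line difference is therefore drawn for the class. Without 1 library the 33 became 56 (Cal33 siControl replicate 2), 63 (Cal33 siControl replicate 3) or 21 (SAS siControl replicate 4). At ENSG00000285517 (chr12:30794693-30796712) the lines moved in opposite ways. Cal33 went from 33.3, 27.2, 27.6 and 30.5 CPM to 40.5, 47.6, 42.1 and 44.7, and SAS from 63.8, 61.0, 72.7 and 71.5 to 49.0, 53.4, 55.6 and 44.6. Groups did not overlap in either line, and the difference of the log2 changes was -1.09 (SE 0.19, adjusted p = 0.000237). ENSG00000233684 rose by 1.36 (SE 0.30) in Cal33 from about 1 CPM and fell by 0.69 (SE 0.22) in SAS, a difference of -2.15 (SE 0.38, adjusted p = 0.000493). LOC105370024 fell by 1.46 (SE 0.34) in SAS and changed by 0.21 (SE 0.13) in Cal33, a difference of -1.78 (SE 0.36, adjusted p = 0.00332).

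Neighbouring lncRNA promoters did not always move together. Within 88482 bp of chromosome 3, ENSG00000243629 rose in Cal33 (log2 change 0.61, SE 0.11, adjusted p = 0.000908) while LOC101928236 fell (-0.43, SE 0.13, adjusted p = 0.0272) and LINC00881, at the other end of the stretch, was not called (-0.11, adjusted p = 0.599). In SAS their log2 changes were -0.26 (adjusted p = 0.0956), -0.53 (adjusted p = 0.0171) and -0.37. Genes with several promoter peaks were also uneven. ENSG00000242086 has 6 on chromosome 3, and in Cal33 the one at 195681877-195682578 fell by 0.92 and that at 195686360-195687775 by 0.42, while the one between them, at 195684693-195685248, changed by 0.15 (adjusted p = 0.592). ENSG00000227036 on chromosome 17 has 8, of which 2 rose in Cal33, by 0.34 and 0.43, and none was called in SAS.

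**Figure D4:**
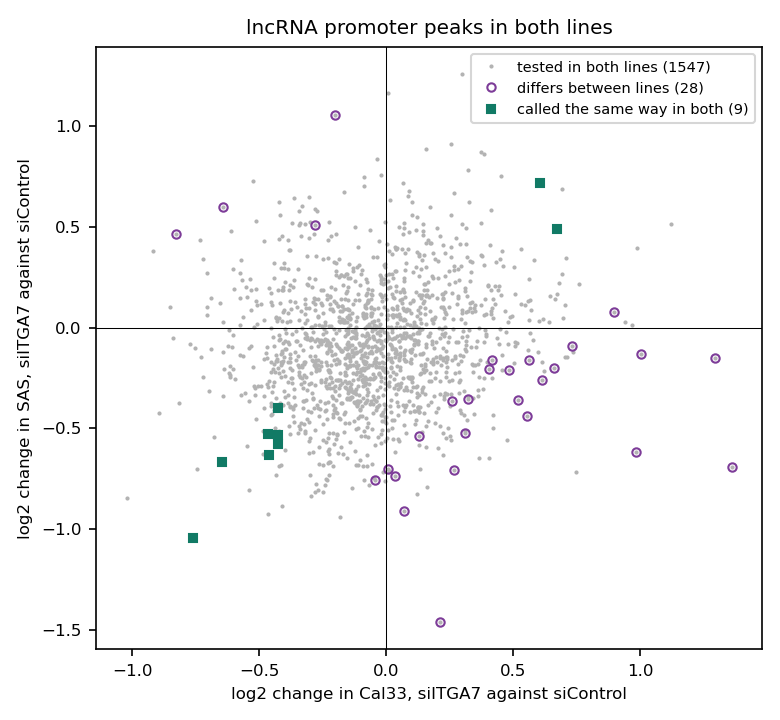
Log2 change after siITGA7 in Cal33 (horizontal axis) and in SAS (vertical axis) for the 1547 lncRNA promoter peaks tested in both lines. Green squares are the 9 peaks called the same way in both, and purple rings the 28 whose change differed between the lines. Most points lie near 0 in both.

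The lines were also compared under siControl, in the fit of all 16 libraries. Of 2553 lncRNA peaks, 854 were higher and 1183 lower in SAS siControl than in Cal33 siControl (33.5% and 46.3%, beside 42.2% and 36.0%, or 78.2% either way, of all peaks). Those counts became 1249 and 731 with total counts as library size, so only the largest differences among called peaks of at least median level are named. ITPR2-AS2, antisense to an inositol trisphosphate receptor gene, was 27.7-fold higher in SAS siControl. On the log2 CPM scale of that fit it stood at 8.53 ± 0.01 in SAS siControl and 3.79 ± 0.06 in Cal33 siControl (SD, n = 4 each). BCAT1-DT, in a peak with the start of the branched-chain aminotransferase gene BCAT1, was 38.4-fold higher, IQSEC3-AS1 33.3-fold, ENSG00000254204 36.3-fold, ENSG00000256084 24.4-fold and UST-AS2 22.1-fold. Of these 6 peaks, 4 lie on chromosome 12, and copy number and accessibility cannot be told apart in counts from 2 lines. LINC01508 was 30.7-fold higher in Cal33 (log2 CPM of 5.67 ± 0.10 against 0.98 ± 0.35 in SAS siControl), LOC107986138 14.3-fold, LOC124908011 13.8-fold, LINC01206 12.3-fold, ENSG00000260810 10.6-fold and ENSG00000267787 10.4-fold. All 12 differences were called under all 22 alternatives. The lower side of several stands on few reads, so the size of those folds is uncertain. Cal33 siControl libraries held 5 to 7 reads at IQSEC3-AS1 and 2 to 16 at ENSG00000256084. SAS siControl libraries held 6 to 10 at LOC124908011, 4 to 14 at LOC107986138, 8 to 10 at LINC01206 and 4 to 13 at ENSG00000267787. These peaks were too low to be tested within the line where they were lower.

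The highest peaks, taken by mean CPM in siControl, did not carry the largest changes. Of them, ENSG00000268120, ITPR2-AS2 and ENSG00000278743 were called in neither line. Per kb of peak, ENSG00000287600 stood at 360 CPM per kb in Cal33 siControl and 183 in SAS siControl, and ENSG00000278095 at 25.0 and 464. The latter fell in Cal33 (log2 change -0.42, SE 0.12, adjusted p = 0.0219), a call made in 11 of 17 alternatives. GASAL1 was among the highest in both lines, with 111 and 146 CPM per kb, and changed by 0.02 (SE 0.14) in Cal33 and -0.20 (SE 0.08, adjusted p = 0.123) in SAS. CDK13-DT, divergent from the kinase gene CDK13, had 110 and 38.5 CPM per kb and log2 changes of -0.27 (SE 0.14) and -0.20 (SE 0.10), neither called. LINC03073 (77.6 and 28.4 CPM per kb) fell in SAS by 0.30 on the log2 scale (SE 0.10, adjusted p = 0.0392), a call made in 6 of 16 alternatives. With peaks split by level into 4 equal groups, from lowest to highest, 1.64%, 4.94%, 8.41% and 10.8% of tested peaks fell and 2.01%, 2.93%, 6.58% and 2.37% rose in Cal33. In SAS 0.966%, 3.39%, 6.30% and 9.90% fell and 2.17%, 3.15%, 1.94% and 2.42% rose. That balance turns with the scaling. Above the median level, Cal33 peaks without a coding start had 46 rises and 69 falls here, but 94 and 35 with promoter TMM factors.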

How the data were processed

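ATAC-seq was measured in 16 libraries, 4 in each of 4 groups taken from the labels. The authors deposited raw counts of reads per peak, a normalized signal and a peak annotation. The deposited signal equals the count divided by 1 factor per library and was left out of every fit. Per the submitters' processing notes, bcl2fastq 2.20.0 and hg38 were used. Aligner, peak caller, duplicate handling and transposase shift were steps not given in the sources used here. Growth and treatment protocols in the labels speak of RNA work, so the times given come from that text.

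Peaks passing edgeR's filterByExpr were fitted within each line (edgeR 4.0.16 quasi-likelihood test, TMM, R 4.3.3), with Benjamini-Hochberg adjustment over all tested peaks and a threshold of 0.05. The SE of a log2 change is its size divided by the square root of F. The line difference and the comparison of the lines under siControl used all 16 libraries. DESeq2 1.42.0, other scalings, no filter, thinning, 1 sequencing run, a replicate block and leaving out each library were alternatives. Tables and figures used Python 3.11.15, pandas 2.3.3 and matplotlib 3.10.9. The fits were tested on simulated data. Total counts ran from 758590 to 13285086, so counting error is largest in SAS siITGA7. P-values measure the spread between these libraries.

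The members and lists were chosen with earlier results of these data known. Coordinates are 1-based, from the deposited annotation. RefSeq names were given to 1594 of 3132 identifiers, 1308 by start, 241 by overlap of the peak and 45 by the gene body. Named peaks were the 8 largest rises and falls per line at or above median level with separate groups, up to 2 per list, those called in both lines, the 6 clearest line differences, the 5 highest per line, the 6 with the largest difference between the lines under siControl each way among called peaks of at least median level, and genes with most peaks. Same-numbered replicates did not vary together, with correlations from -0.131 to 0.00036 in Cal33 and from -0.027 to 0.0062 in SAS.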

Additional observations from a re-analysis of the deposited data

Results flagged for a closer look

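Of 284 groups of 4 libraries at the named peaks, 14 held a library far from the other 3 by Dixon's criterion, and chance gives about 1 in 20. In Cal33 siControl these were SLC2A1-DT in replicate 3 (64.7 CPM), ENSG00000256084 in replicate 3 (1.86 CPM), LINC02459 in replicate 4 (76.1 CPM), LOC105371773 in replicate 4 (4.06 CPM) and ENSG00000243629 in replicate 4 (22.4 CPM). In Cal33 siITGA7 it was LNMICC in replicate 3 (16 CPM). In SAS siControl they were LNMICC in replicate 1 (44 CPM), LOC124908011 in replicate 2 (7.34 CPM), ENSG00000204929 in replicate 3 (46.2 CPM) and ENSG00000230285 in replicate 4 (19.7 CPM). In SAS siITGA7 they were IQSEC3-AS1 in replicate 1 (63 CPM), ENSG00000243629 in replicate 1 (92.7 CPM), LOC124903062 in replicate 2 (0.937 CPM) and BCAT1-DT in replicate 3 (133 CPM).

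The change after siITGA7 differed between the lines at 12 named peaks by the interaction test (edgeR, adjusted p under 0.05). It was higher in SAS at DIO3OS (difference of log2 changes 2.89) and TMEM105 (0.69). It was lower in SAS at ENSG00000233684 (-2.15), LOC105370024 (-1.78), ENSG00000285517 (-1.09), ENSG00000204929 (-1.07), ENSG00000243629 (-0.98), LINC03063 (-0.97), LOC105370399 (-0.92), FAM151B-DT (-0.88), PCCA-DT (-0.82) and LACTB2-AS1 (-0.82). Of these, 8 were called under all 22 alternatives. PCCA-DT and TMEM105 were called in 7 of 22, LACTB2-AS1 in 9 and LINC03063 in 16.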

How the results depend on the processing

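Every named call kept its sign under every alternative that gave a value, but 20 of 32 in Cal33 and 7 of 33 in SAS were called in all. The cause of the changes below was not tested. Cal33 rises (76) became 50 with DESeq2, 151 with promoter TMM, 132 with total counts, 44 with libraries of 1 run and 50 when thinned. Falls (141) became 61 with promoter TMM, 38 with 1 run and 89 when thinned. SAS rises (40) became 22 with DESeq2, 76 with promoter TMM and 7 when thinned. Falls (85) became 17 with DESeq2, 23 with promoter TMM, 273 with no filter and 9 when thinned. The line difference (33) became 18 with DESeq2, 21 with RLE size factors, 76 with no filter and 62 with total counts. Peaks lower in SAS siControl than in Cal33 siControl (1183) became 731 with total counts. Leaving out 1 library gave 42 to 96 rises and 56 to 315 falls in Cal33, 29 to 42 and 43 to 104 in SAS, and 21 to 63 line differences. The Cal33 median log2 change became 0.05586 with promoter TMM, 0.0103 with total counts, -0.00791 with 1 run and -0.02481 with no filter (-0.07846 to -0.04056 without 1 library). The SAS median became 0.04253 with promoter TMM, -0.1374 in the fit of all libraries, -0.1983 with no filter and -0.06891 when thinned (-0.111 to -0.09028 without 1 library). Taken over promoter counts, the Cal33 share of counts in lncRNA promoter peaks was 0.6773 points higher in siITGA7 (-0.1266 to -0.01573 over all counts without 1 library), and the SAS share of counts in lncRNA promoter peaks 0.3484 points higher (-0.354 to -0.3214).

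The labels' replicate numbers did not pair the samples. With a replicate block there were 61 rises and 101 falls in Cal33, 35 and 66 in SAS, 25 line differences, and 826 higher and 1174 lower in SAS siControl than in Cal33 siControl. The medians were -0.05845 and -0.09148. Thinning each line to its own smallest library left 968 SAS and 1777 Cal33 peaks to test.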
